A study of Mus musculus with 42 samples.

Results

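The expression profile of the paraventricular nucleus (PVN) of fasted mice was set against those of 3 further hypothalamic nuclei of fasted mice, arcuate (ARC), ventromedial (VMH) and dorsomedial (DMH), to find the genes that were higher or lower in the PVN than in all 3 other nuclei. All mice were adult wild-type males of the strain C57/BL6 that had gone without food for 24 hours before dissection. Nuclei were cut from frozen brain sections by laser-capture microdissection, and each library is the bulk RNA of 1 nucleus after amplification. The comparison rests on 20 of the 42 libraries of the series, namely 5 of the PVN, 5 of the ARC, 6 of the VMH and 4 of the DMH. The 22 libraries of mice fed ad libitum served as a second, separate set of animals, and they also entered the estimate of the spread of each gene.

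Of 33579 genes tested, 217 were higher in the fasted PVN than in each of the 3 other fasted nuclei and 114 were lower than in each. A gene was counted when the adjusted p (limma, Benjamini-Hochberg over all genes) was under 0.1 in all 3 comparisons and all 3 differences had the same sign. That is 0.646% of the genes tested on the higher side and 0.339% on the lower side. The genes tested include genes without reads, because the deposited values hold an added count that can pass the filter. Without genes constant in all libraries 28801 remained. The shares of all genes tested, here and below, are therefore smaller than among expressed genes alone. Ranked by the smallest of their 3 differences, the higher genes were led by Avp and Oxt, then Ucn3, Tns1, Fezf2, Agtr1a, Pgf, Sim1 and Nrn1. Rufy4, Pou3f2, Cd93, Prdm8, Crh and Uncx followed. Among these, Avp, Oxt, Ucn3 and Crh encode peptides, and Fezf2, Sim1, Pou3f2, Prdm8 and Uncx encode transcription factors. The lower genes were led by the transcription factor Nkx2-1. Next to it stood the glutamate receptor subunit gene Grik3, the membrane contact gene Esyt3, the GABA-A receptor subunit gene Gabra5 and a set of predicted genes that share sequence with each other.

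The PVN holds the magnocellular neurons that send oxytocin and vasopressin to the posterior pituitary. It also holds the parvocellular neurons that release corticotropin-releasing hormone and thyrotropin-releasing hormone at the median eminence, and neurons that project to the brain stem and receive melanocortin and NPY input from the ARC. The transcription factor SIM1, with its partner ARNT2, and OTP and POU3F2 are known to be needed for these neurosecretory cells to form. The ARC, VMH and DMH arise from the more ventral hypothalamus, where NKX2-1 is made.

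Levels are given in RPKM, reads scaled to gene length and library size, which makes genes and libraries only roughly comparable. The values the authors deposited include a small count added to every gene, so a gene without reads has a value above 0, with a median of 1.60 RPKM over the genes where it could be read. This value differs from gene to gene, so low levels cannot be compared between genes. A difference between nuclei is a difference of mean log2(RPKM + 1) with its standard error (SE), PVN minus the other nucleus, and it understates the fold change of a gene near that value. In bulk tissue, fewer cells of a type and less RNA per cell cannot be told apart.

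Oxt and Avp are shown first because they had the highest mean PVN levels among the genes named here and lie side by side in the genome. Oxt lies on chromosome 2 at 130576173-130577054, plus strand, and Avp at 130580620-130582554, minus strand (GRCm38), so that the ends of the genes face each other across 3565 bases. The 250 bases before the RefSeq start site of each gene (GRCm38.p6) are printed 5′ to 3′ in the direction of the gene. The gene positions above come from another annotation of the same build, whose starts differ slightly from those of RefSeq. They span chr2:130575919-130576168 for Oxt and chr2:130582589-130582838 for Avp. Capitals in Oxt mark TGACC or its reverse complement GGTCA, the core of nuclear receptor half-sites, and capitals in Avp mark ACGTG or its reverse complement CACGT, the core bound by bHLH-PAS factors such as SIM1 with ARNT2.
Oxt: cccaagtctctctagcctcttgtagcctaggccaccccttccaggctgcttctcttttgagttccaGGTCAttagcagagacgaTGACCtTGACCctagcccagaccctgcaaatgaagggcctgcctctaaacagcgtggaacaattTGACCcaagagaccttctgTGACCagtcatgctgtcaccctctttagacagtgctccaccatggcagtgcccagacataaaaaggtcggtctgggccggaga
Avp: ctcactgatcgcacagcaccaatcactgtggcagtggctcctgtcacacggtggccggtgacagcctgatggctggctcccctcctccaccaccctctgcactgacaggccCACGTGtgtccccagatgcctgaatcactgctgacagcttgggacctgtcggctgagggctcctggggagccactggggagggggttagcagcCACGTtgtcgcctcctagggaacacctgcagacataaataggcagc

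The Oxt promoter held TGACC or its complement 5 times, and 35.2% of the 32851 promoters in the table, over the same 250 bases, held it at least once on either strand. The Avp promoter held 3 matches to ACGTG on either strand, of which a pair overlap in the palindrome CACGTG, and 16.6% of promoters held at least one. These matches are a description of letters and not of bound sites.

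The dissection was checked with genes that mark each nucleus. Npy and Fezf1 had also been chosen as markers, of the ARC and the VMH, but their values are not given here. Pomc, Agrp and Nr5a1 are set against the PVN only, so how far the other nuclei were free of each other is not shown. Pomc was at 262.5, 348, 449.5, 355 and 409.6 RPKM in the ARC libraries and at 3.59 to 10.1 in the PVN, and Agrp was at 341 to 597 in the ARC and 2.24 to 6.38 in the PVN. Nr5a1 was at 15.4 to 28.9 RPKM in the VMH and 0.217 to 0.495 in the PVN. Hmx2 and Hmx3 were highest in the DMH, at 3.70 to 6.88 and 2.53 to 3.07 RPKM. The defining genes of the PVN were high in all 5 PVN libraries, as given below. Ppp1r17, chosen as a marker of the DMH, was as high in the fasted PVN, at 33.9 to 68.5 RPKM, as in the fasted DMH, at 44.7 to 55.7 RPKM.

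Estimated depth was 4.80 ± 1.55 M reads in the PVN (SD, n = 5) and did not differ from that of another nucleus beyond the spread between libraries, with two-sided exact permutation p = 0.698 for the ARC, 0.374 for the VMH and 0.19 for the DMH. Component 1 of a principal component analysis of the 20 fasted libraries held 18.5% of the variance, of which 95.2% lay between nuclei, and component 2 held 12.7%, of which 84.3% lay between nuclei. PVN library 1, the shallowest of its group at 2.95 M reads, and ARC library 1 lay farthest out within their groups on component 2. Without PVN library 1 there were 188 higher and 103 lower genes, of which 167 and 91 were among the 217 and 114, and without ARC library 1 there were 207 and 99, of which 202 and 94 were shared. VMH libraries 1 and 2, the shallowest of their group, stood apart on component 3, which held 9.2% of the variance. Without VMH library 1 the counts were 215 and 108, and without VMH library 2 they were 220 and 115. The values show 3 technical batches of 10, 16 and 16 libraries, and batch 1 held no fasted DMH library. The fasted libraries of batch 1 were PVN library 1, ARC library 1 and VMH libraries 1 and 2. These are the libraries named above as lying apart on components 2 and 3. ARC library 1, at 4.49 M reads, was not the shallowest of its group. Whether batch or depth set these libraries apart was not tested. Of the 217 higher and 114 lower genes, 203 and 112 had the called direction in every comparison within batch 1, and 215 and 114 within each of batches 2 and 3. These genes were called on the same libraries, so the counts describe the batches and are no independent support.

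**Figure D1:**
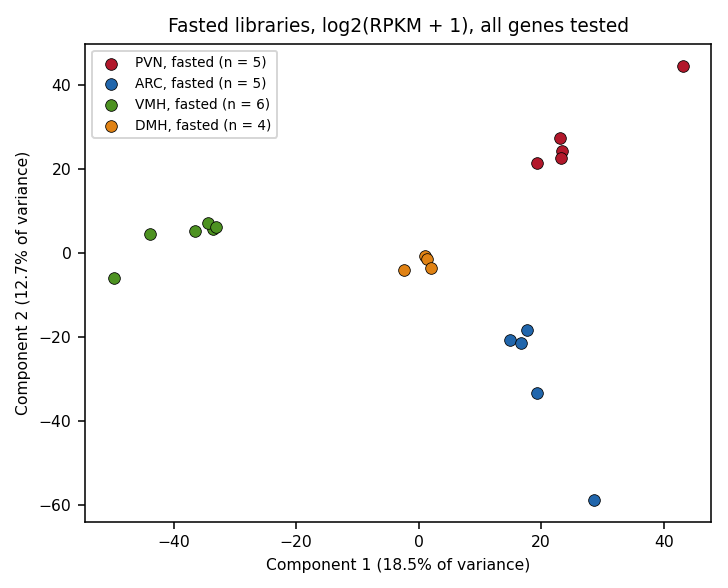
Each point is 1 fasted library on components 1 and 2 of log2(RPKM + 1) over all genes tested, with the share of variance on each axis label and colour giving the nucleus. The 5 PVN libraries lie apart from the 15 others at high values of component 2, and PVN library 1 and ARC library 1 lie farthest from their own groups.

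The neuropeptides of the PVN gave the largest differences. Oxt, which encodes oxytocin, was at 3342, 4109.7, 4940.4, 4019.6 and 5279.9 RPKM in the 5 PVN libraries. It was at 8.57, 62.1, 12.2, 30.1 and 77.4 in the ARC, at 16.6, 11.6, 15.3 and 23.8 in the DMH, and at a lowest, median and highest value of 4.83, 9.90 and 14.0 in the VMH. Every PVN library was above every other library, and the PVN mean was 114 times the highest mean of another nucleus. The difference was 7.22 ± 0.47 to the ARC (SE, adjusted p = 9.91e-14), 8.69 ± 0.45 to the VMH (adjusted p = 1.27e-16) and 7.95 ± 0.49 to the DMH (adjusted p = 8.96e-14). The ARC libraries varied the most among the nuclei with low Oxt, with 3 of 5 above every VMH and DMH library.

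Avp, which encodes vasopressin, was at 1166, 1906, 2108, 2100.3 and 1642 RPKM in the PVN. It was at 6.05, 20.9, 5.17, 11.9 and 11.7 in the ARC, at 4.62, 5.44, 5.65 and 5.35 in the DMH, and at 2.57 to 7.87 in the VMH with a median of 5.71. The groups did not overlap, and the smallest difference, to the ARC, was 7.32 ± 0.36 (adjusted p = 5.22e-17). Oxt and Avp share 16% and 14.8% of the 50-base stretches of their transcripts with each other, so a part of the reads of each could have been given to the other.

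Crh, the hormone that starts the pituitary-adrenal stress response, was at 22.9, 25.4, 21.6, 22.9 and 18.6 RPKM in the PVN. It was at 3.40, 6.84, 5.61 and 3.14 in the DMH, at 0.884 to 2.17 in the ARC and at 0.767 to 1.29 in the VMH, where 4 of 6 libraries held no read. The order was thus PVN, then DMH, then ARC and VMH, which overlapped each other, and the difference to the DMH was 2.06 ± 0.20 (adjusted p = 5.01e-09).

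Ucn3, an urocortin that acts on the type 2 CRH receptor, was at 56.3, 36.5, 46.9, 17.7 and 36.7 RPKM in the PVN. All but 2 of the 15 other fasted libraries were at or below 1.67 RPKM. The exceptions were DMH library 2 at 11.6 and VMH library 6 at 8.03, both still below the lowest PVN library. The smallest difference was 3.44 ± 0.45, to the DMH (adjusted p = 2.93e-06).

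Trh and Sst, further products of PVN neurons, were not higher than in all 3 nuclei. Trh, thyrotropin-releasing hormone, was at 155, 81.1, 90.3, 103 and 93.5 RPKM in the PVN and at 64.3, 65.4, 73.4 and 48.9 in the DMH, against 2.78 to 11.0 in the ARC and 1.54 to 7.04 in the VMH. Every PVN library was above every DMH library, but the difference of 0.70 ± 0.41 did not pass the test over all genes (adjusted p = 0.589), whereas those to the ARC, 3.71 ± 0.38, and to the VMH, 4.72 ± 0.37, did (adjusted p = 1.07e-08 and 6.55e-12). Taken alone, Trh differed from the DMH with a two-sided exact permutation p = 0.0159. Sst, somatostatin, was at 886 to 1994 RPKM in the PVN, overlapping 1675 to 2480 in the ARC, and above all libraries of the VMH and DMH, which lay between 277 and 592.

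Of the 15 members of the fixed list of secreted peptides that were tested, 3 were higher than in all 3 nuclei, namely Oxt, Avp and Crh, and none was lower. Against the ARC alone 8 were higher and 1 lower, against the VMH 10 and 2, and against the DMH 4 and 2. Of all genes tested, 2.2% were higher and 1.99% lower than in the ARC (4.19% in either direction), 4.74% and 4.5% against the VMH (9.24%), and 1.36% and 1.65% against the DMH (3%). The list median was 1.25, 2.31 and 0.41 on the log2 scale for the 3 comparisons, where the median of all genes was 0. Of 11 peptides that mark other nuclei, 5, 3 and 4 were lower than in the ARC, VMH and DMH and none, 1 and none higher, so most did not pass, and Tac2 alone was lower in all 3 comparisons. Tac2, which encodes neurokinin B, was at 1.09 to 2.37 RPKM in the PVN against 72.6 to 88.6 in the ARC and 27.0 to 45.7 in the DMH. In the VMH it was at 1.47 to 17.5 and overlapped the PVN, and its call there was at adjusted p = 0.0696. That call was lost when any of 5 single libraries was left out, with a pseudocount of 5 (adjusted p = 0.207), with depth as a covariate (0.15) and in the fasted libraries alone (0.108).

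**Figure D2:**
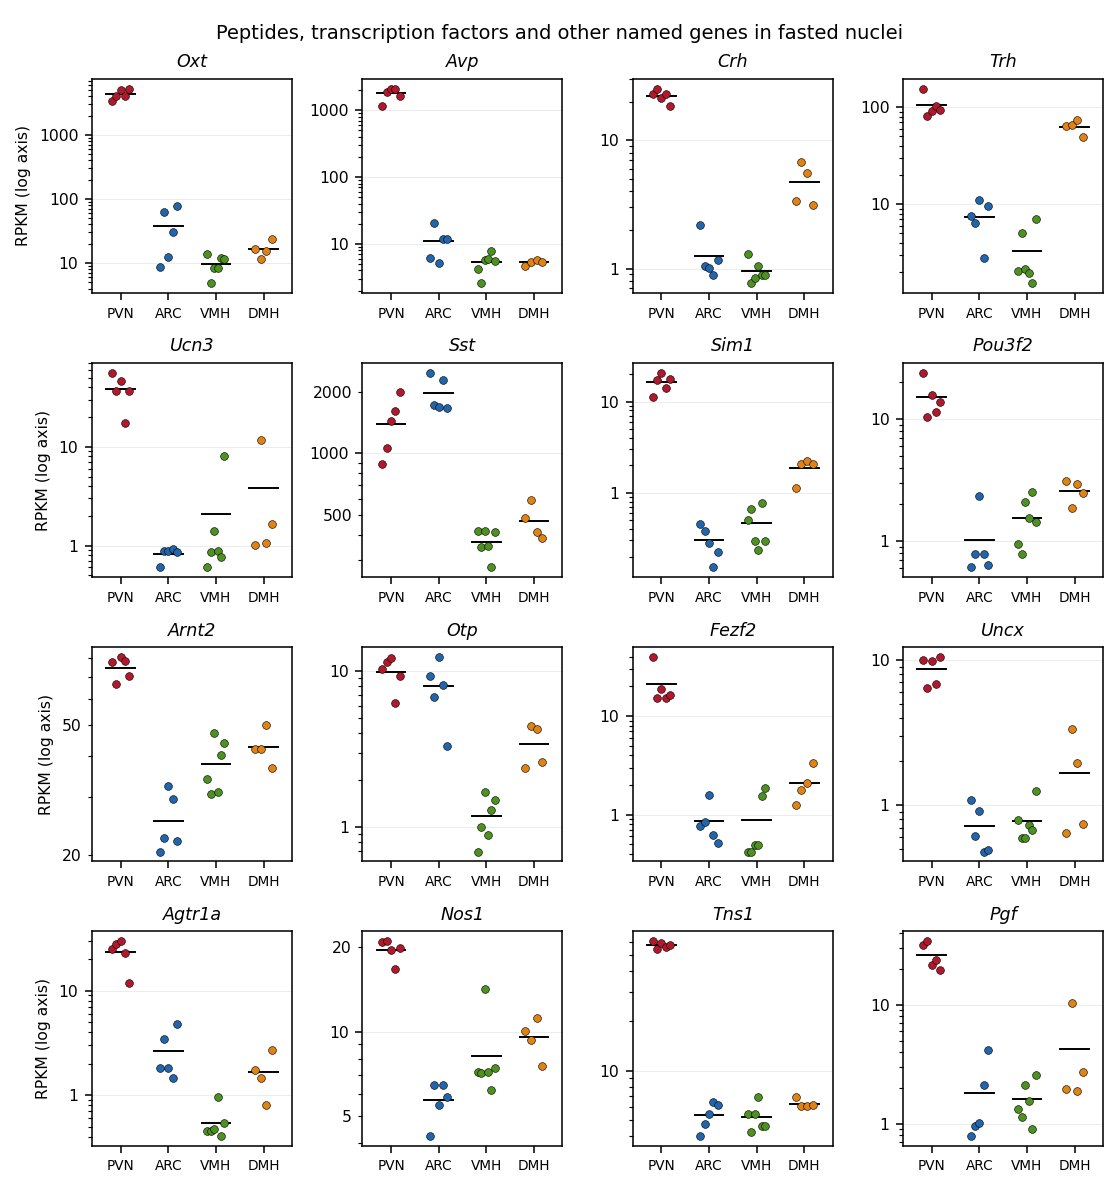
RPKM of 16 named genes on a log axis, 1 point per fasted library and a bar at the group mean, for PVN (n = 5), ARC (n = 5), VMH (n = 6) and DMH (n = 4). The PVN points lie above all others for every gene drawn except Sst and Otp, which overlap the ARC, while Trh lies only just above the DMH.

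The transcription factors of the PVN were the list with the largest share of members called in all 3 comparisons. The list was drawn up with earlier results of these data known, so its rank is a description and no independent support. Of its 8 members, 6 were higher than in the ARC, 8 than in the VMH and 6 than in the DMH, with list medians of 2.01, 2.38 and 1.63, and 5 were higher than in all 3. These were Sim1, Arnt2, Pou3f2, Fezf2 and Uncx.

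Sim1, the bHLH-PAS factor that specifies the PVN, was at 11.4, 17.4, 20.7, 14.1 and 17.8 RPKM there. It was at 1.12, 2.06, 2.21 and 2.05 in the DMH, at 0.152 to 0.460 in the ARC and at 0.238 to 0.780 in the VMH. The groups did not overlap, and the PVN exceeded the DMH by 2.59 ± 0.14 (adjusted p = 8.41e-15). Its partner Arnt2 was at 77.8, 66.6, 80.6, 78.5 and 70.2 RPKM in the PVN. Unlike Sim1 it was at high levels in every nucleus, at 36.9 to 49.9 in the DMH, 30.7 to 47.1 in the VMH and 20.5 to 32.4 in the ARC. Its smallest difference, to the DMH, was 0.79 ± 0.12 (adjusted p = 4.38e-05).

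Pou3f2, the POU factor also called Brn2, was at 23.9, 10.4, 15.8, 11.5 and 13.7 RPKM in the PVN and at most 3.12 in any other library, a smallest difference of 2.12 ± 0.26 (adjusted p = 8.15e-07). Fezf2, a zinc finger factor better known from cortical projection neurons, was at 39.7, 15.2, 18.7, 15.3 and 16.3 RPKM, with library 1 above the rest, and at most 3.31 elsewhere. Uncx, a homeobox gene, was at 6.44 to 10.5 RPKM in the PVN and at 0.478 to 3.36 in the others. Fezf2 and Uncx exceeded their nearest nucleus, the DMH, by 2.76 ± 0.31 and 1.95 ± 0.20 (adjusted p = 2.05e-07 and 1.99e-08).

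Otp, a homeobox gene of neurosecretory cells, did not separate the fasted PVN from the ARC. It was at 10.4, 11.4, 12.2, 6.22 and 9.24 RPKM in the PVN and at 9.29, 6.87, 12.3, 8.17 and 3.29 in the ARC, which overlapped, with a difference of 0.34 ± 0.42 (adjusted p = 1). It was higher than in the VMH (2.31 ± 0.40, adjusted p = 7.95e-05), and the difference to the DMH was 1.31 ± 0.44 (adjusted p = 0.147). Sim2 and Nhlh2, the other members, were not called in all 3 comparisons. Prdm8, a transcriptional repressor of the PRDM family that was not on the list, was at 4.22 to 15.6 RPKM in the PVN and exceeded the DMH by 2.10 ± 0.30 (adjusted p = 1.13e-05), although 29.1% of its exon length overlaps another gene and the reads carry no strand. Zic1, on the list of genes of the neighbouring thalamus and zona incerta, was at 5.80 to 8.79 RPKM in the PVN and at most 2.33 elsewhere (1.60 ± 0.17 to the DMH, adjusted p = 7.3e-08). It was the only one of the 10 members tested on that list to be called in all 3 comparisons.

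Factors of the ventral hypothalamus and of GABA neuron lineages were lower in part. Of 20 members, 12 were lower than in the ARC, 7 than in the VMH and 10 than in the DMH, while 1, 1 and none were higher, and 3 were lower in all comparisons. The list median was -1.17 against the ARC and -0.88 against the DMH, but -0.02 against the VMH. Nkx2-1, which patterns the ventral hypothalamus, was at 0.490, 0.610, 1.19, 0.848 and 0.564 RPKM in the PVN. It was at 25.8, 17.8, 13.1, 10.1 and 12.9 in the ARC, at 9.85, 8.35, 7.93 and 6.95 in the DMH and at 12.2 to 17.3 in the VMH. The groups did not overlap, and the mean of every other nucleus was at least 11.2 times that of the PVN. On the log2 scale Nkx2-1 fell short of the DMH by the smallest amount, a difference of -2.42 ± 0.17 (adjusted p = 2.69e-12).

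Isl1, a LIM homeobox gene used by POMC neurons, was at 0.299 to 0.796 RPKM in the PVN, where 2 of 5 libraries held no read. It was highest in the ARC at 8.49 to 19.9, then in the DMH at 4.0 to 8.63 and the VMH at 2.22 to 5.43, with a smallest difference of -1.67 ± 0.26 (adjusted p = 1.93e-05). Prox1 was at 1.40 to 2.72 RPKM in the PVN and was highest in the DMH at 16.7 to 22.3. Its smallest difference, to the VMH, was -1.62 ± 0.20 (adjusted p = 1.64e-07).

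Receptor genes gave a less uniform picture. Of 28 peptide and monoamine receptors, 3 were higher than in the ARC and 10 lower, 8 were higher than in the VMH and 5 lower, and 2 were higher than in the DMH and 3 lower. The list medians were -0.41, 0.23 and -0.04. In all 3 comparisons 1 was higher, Sstr2, and 1 was lower, Lepr.

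Lepr, the leptin receptor, was at 0.856, 0.563, 0.483, 0.580 and 0.694 RPKM in the PVN. It was at 14.0, 9.03, 5.80, 9.34 and 7.25 in the ARC, at 2.30, 1.42, 1.92 and 2.52 in the DMH and at 1.07 to 3.24 in the VMH. The PVN was below every other library, by -2.58 ± 0.17 against the ARC (adjusted p = 3.22e-13) and by -0.88 ± 0.19 against the DMH (adjusted p = 0.00369). Sstr2, a somatostatin receptor, was at 14.0, 12.4, 13.9, 10.4 and 7.67 RPKM in the PVN, and the highest ARC library, at 8.38, overlapped the lowest of these. Its smallest difference, to the ARC, was 0.97 ± 0.26 (adjusted p = 0.0294). That call was lost without the batch 1 libraries (adjusted p = 0.177) and in a fit on the fasted libraries alone (0.153).

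Agtr1a, the angiotensin II receptor, was not on that list and had one of the largest differences. It was at 24.8, 27.8, 29.7, 22.7 and 11.9 RPKM in the PVN. It was at 1.82, 3.43, 1.81, 1.47 and 4.79 in the ARC, at 1.72, 1.46, 0.798 and 2.69 in the DMH and at 0.408 to 0.957 in the VMH, where 4 of 6 libraries held no read. The groups did not overlap, and the smallest difference was 2.75 ± 0.31, to the ARC (adjusted p = 6.57e-08). Mc4r, the melanocortin receptor through which POMC and AgRP neurons act on the PVN, was at 2.45, 8.01, 2.95, 3.52 and 2.32 RPKM there. The ARC, at 0.761 to 5.31, and DMH library 4, at 3.89, reached into this range, and only the difference to the VMH passed the test (1.11 ± 0.38, adjusted p = 0.0757, against 0.63 for the ARC and 0.271 for the DMH).

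Among 13 steroid and thyroid hormone receptor genes, Esr2 was higher in all comparisons and none was lower in all. Esr2, the estrogen receptor beta, was at 2.63 to 3.76 RPKM in the PVN and at most 2.03 elsewhere, with a smallest difference of 0.98 ± 0.25 (adjusted p = 0.0224). Nr3c1, the glucocorticoid receptor that mediates feedback on Crh, was at 13.5 to 25.3 RPKM in the PVN, overlapping the ARC and VMH and just above the DMH at 10.2 to 12.9, and its differences of -0.23 ± 0.16, 0.07 ± 0.15 and 0.45 ± 0.17 did not pass (adjusted p = 0.681, 1 and 0.229). Of 16 glucocorticoid-induced genes none was called in all 3 comparisons in either direction. Of all genes tested only 0.646% were higher and 0.339% lower in all 3, so a list of this size could well hold none. In single comparisons 3 of the 16 were higher and 3 lower than in the VMH. Against the DMH 3 were lower and none higher, and none was called against the ARC. Nos1, the neuronal nitric oxide synthase found in many magnocellular neurons, was at 20.9, 21.0, 19.6, 16.7 and 19.8 RPKM in the PVN. It was at 7.55 to 11.2 in the DMH, 6.18 to 14.2 in the VMH and 4.25 to 6.47 in the ARC, below every PVN library. Its smallest difference, to the DMH, was 0.97 ± 0.17 (adjusted p = 0.000258). The other members of its list of 8 nitric oxide signalling genes did not share this pattern. Of the 8, 2, 1 and 1 were higher than in the ARC, VMH and DMH, and none, 4 and 1 were lower. The list medians were -0.20, -0.45 and -0.19, and only Nos1 was called in all 3 comparisons.

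Among genes of the secretory pathway some members were higher, by smaller factors. Of 18 members of the list for prohormone processing and secretory granules, 6 were higher than in the ARC and 2 lower, 10 and 2 against the VMH, and 9 and 2 against the DMH, and 4 were higher and 2 lower in all 3. Pcsk1, the prohormone convertase that makes the first cuts in many peptide precursors, was at 33.8, 45.3, 36, 46.8 and 34.3 RPKM in the PVN. It was at 12.6 to 25.7 in the ARC, 7.92 to 15.9 in the DMH and 5.70 to 9.23 in the VMH. The PVN did not overlap the others and exceeded the ARC by 0.93 ± 0.21 (adjusted p = 0.00599).

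Scg2, secretogranin II, exceeded the ARC by 0.32 ± 0.07, Ptprn2, a granule membrane protein, exceeded the DMH by 0.36 ± 0.09, and Cpe, carboxypeptidase E, exceeded the DMH by 0.31 ± 0.09, their smallest differences (adjusted p = 0.00736, 0.0277 and 0.056). Quantile normalization ended these 3 calls, with differences of 0.23, 0.31 and 0.14 (adjusted p = 0.201, 0.105 and 0.683), and leaving out PVN library 1 also ended that of Ptprn2. The granule genes did not all point one way. Sytl4, granuphilin, was at 2.02 to 5.97 RPKM in the PVN against 12.7 to 29.2 in all other libraries (smallest difference -1.47 ± 0.26, adjusted p = 0.000346). Chga, chromogranin A, was at 22.3 to 36.3 RPKM against 40.3 to 96.2 (smallest difference -0.72 ± 0.21, to the ARC), and its call rests on an adjusted p = 0.0776 against the DMH that was lost when any of 9 single libraries was left out, with batch as a covariate (0.117) and with depth as one (0.139). Leaving out any of 5 single libraries, or batch 1, or fitting the fasted libraries alone also ended the call of Cpe.

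The endoplasmic reticulum, where peptide precursors fold, was represented by 18 genes. Of these, 15 were higher than in the VMH, 11 than in the DMH and 5 than in the ARC, and none was lower. The list medians were 1.047, 0.66 and 0.24 for the VMH, DMH and ARC. The 5 genes higher in all 3 were Hsp90b1 and Canx, chaperones of the reticulum, Dnajb9, a co-chaperone, Ssr4, a subunit of the translocon-associated complex, and Caprin2, an RNA-binding protein known to bind vasopressin mRNA. Canx was at 138 to 174 RPKM in the PVN, overlapping the ARC at 96.9 to 144, and its call was lost in the fasted libraries alone (adjusted p = 0.193) and without ARC library 2 (0.101).

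Hsp90b1 was at 411, 372, 418, 368 and 391 RPKM in the PVN, above 269 to 339 in the ARC, 243 to 257 in the DMH and 145 to 196 in the VMH, with differences of 0.39 ± 0.07, 0.65 ± 0.08 and 1.18 ± 0.07 (adjusted p = 0.000724, 6.29e-07 and 9.53e-15). Of its exon length, 15.7% overlaps other genes. Caprin2 was at 5.62 to 10.6 RPKM in the PVN, and 1 ARC library, at 6.19, overlapped it (smallest difference 1.01 ± 0.23, adjusted p = 0.00561). Ssr4 was at 25.3 to 39.1 RPKM and at most 19.9 elsewhere (0.81 ± 0.22 to the ARC, adjusted p = 0.0294). Dnajb9 passed narrowly against the DMH (0.62 ± 0.19, adjusted p = 0.0836). Its call was lost when any of 7 single libraries was left out and with batch as a covariate (adjusted p = 0.12).

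**Figure D3:**
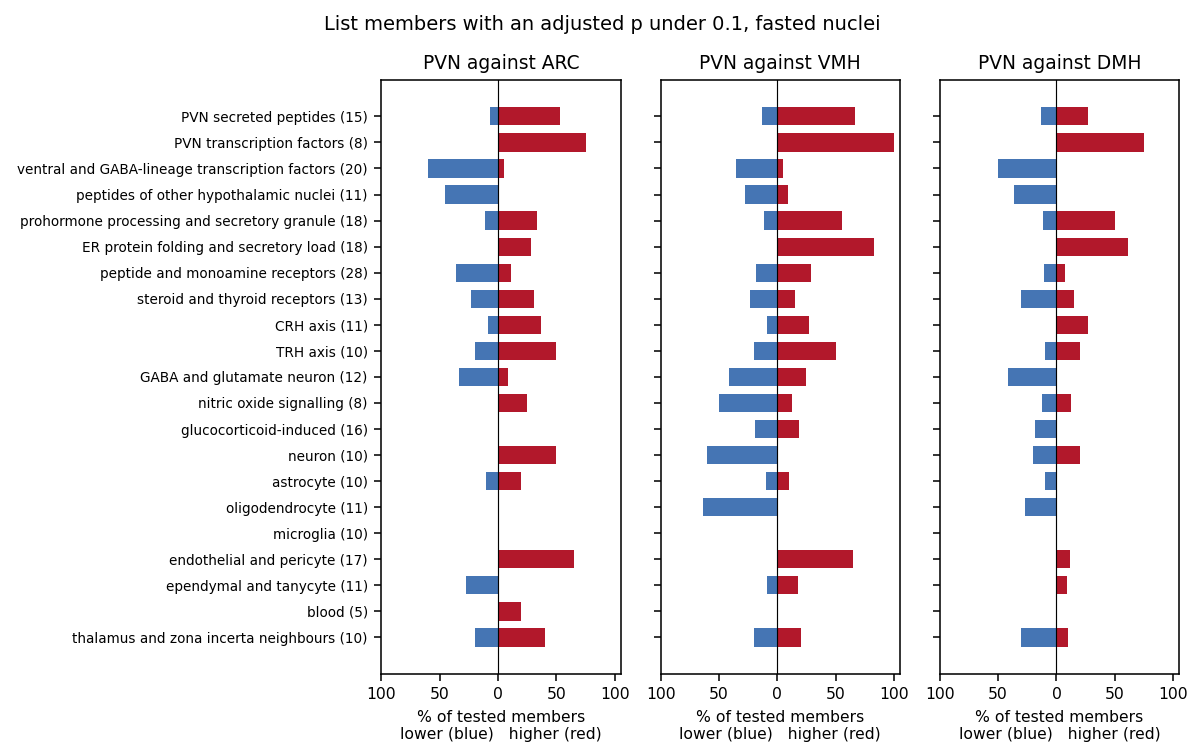
For each fixed gene list, with the number of members tested in parentheses, the bars give the percentage of members with an adjusted p under 0.1 in the fasted PVN against the ARC, VMH and DMH, higher to the right in red and lower to the left in blue. All 8 PVN transcription factors were higher than in the VMH, the endoplasmic reticulum list was higher most often against the VMH, and the endothelial list was higher in 11 of 17 members against the ARC and VMH but 2 of 17 against the DMH.

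Markers of other cell types moved with some of the comparisons. Of 17 endothelial and pericyte genes, 11 were higher than in the ARC, 11 than in the VMH and 2 than in the DMH, and none was lower. Their summed level was 294 to 338 RPKM in the PVN libraries, against 133 to 174 in the ARC, 138 to 180 in the VMH and 181 to 205 in the DMH. Rgs5, a pericyte gene, was at 69.7 to 99.4 RPKM in the PVN and at 24.0 to 53.5 elsewhere (0.99 ± 0.16 to the DMH, adjusted p = 8.72e-05), and Kdr, the VEGF receptor 2, was at 1.35 to 5.13 and at most 1.33 elsewhere (0.97 ± 0.22 to the VMH, adjusted p = 0.00303).

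Of 11 oligodendrocyte genes, 7 were lower than in the VMH, 3 lower than in the DMH and none was called against the ARC, with sums of 118 to 147 RPKM in the PVN, 99.9 to 213 in the ARC, 228 to 318 in the VMH and 168 to 251 in the DMH. Of 10 neuron genes, 5 were higher than in the ARC and 6 lower than in the VMH. The neuron sums were 1199 to 1426 RPKM in the PVN, 868 to 987 in the ARC, 1607 to 2154 in the VMH and 1177 to 1356 in the DMH. No member of the oligodendrocyte, neuron, astrocyte, microglia, ependymal or blood lists was called in all 3 comparisons, and no microglia gene was called in any. The part of these cell types in the other differences was not tested.

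Several of the genes with the largest differences lay outside the fixed lists. Tns1, tensin 1, a protein of focal adhesions, was at 60.9, 54.4, 59.8, 56.5 and 58.0 RPKM in the PVN. All 15 other fasted libraries lay between 4.02 and 6.95, and the 4 group ranges were narrow, with a smallest difference of 3.01 ± 0.18, to the DMH (adjusted p = 6.09e-14). Rufy4, a RUN and FYVE domain gene, starts on the opposite strand of chromosome 1, 1091 bases from the start of Tns1, and was at 4.78, 10.9, 9.23, 9.34 and 6.74 RPKM in the PVN. It was at most 2.63 elsewhere, where 8 of 15 libraries held no read, and exceeded the ARC least, by 2.28 ± 0.27 (adjusted p = 2.58e-07).

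Pgf, placental growth factor, a ligand of the VEGF receptor family, was at 31.7, 34.2, 21.7, 23.6 and 19.6 RPKM in the PVN. Of the other libraries DMH library 2 was the highest at 10.3, and the remaining 14 were at or below 4.15. Its smallest difference, to the DMH, was 2.61 ± 0.35 (adjusted p = 5.42e-06). Cd93, an endothelial cell surface receptor, was at 7.27 to 18.9 RPKM in the PVN and at most 3.91 elsewhere (2.10 ± 0.30 to the DMH, adjusted p = 1.21e-05). Nrn1, neuritin, a neurite growth protein, was at 46.4, 51.3, 64.4, 57.2 and 44.6 RPKM in the PVN. It was at 4.92 to 13.8 in the DMH and at most 2.19 in the ARC and VMH, with a smallest difference of 2.53 ± 0.31 (adjusted p = 1.16e-06), and 22.3% of its exon length overlaps the gene Fars2.

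Among the lower genes, 8 of the 15 with the largest differences were predicted genes on chromosomes 2, 9 and 14 whose transcripts share sequence or overlap. Gm10800 was at 328, 742, 338, 78.9 and 1314 RPKM in the PVN and at 835 to 5949 in the other libraries, so the groups overlapped. Its differences were -2.40 ± 0.56, -2.61 ± 0.53 and -2.69 ± 0.59 to the ARC, VMH and DMH (adjusted p = 0.00736, 0.000836 and 0.0064). Gm10801 and Gm10717 had the same order of PVN libraries, with library 4 lowest and library 5 highest. Gm10800, Gm10801 and Gm10717 share 27.2%, 17.1% and 46.4% of their 50-base stretches with other genes, so their values are uncertain and do not count as separate observations.

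Of the other lower genes, Grik3, a kainate receptor subunit, was at 0.886, 3.46, 2.13, 2.44 and 2.30 RPKM in the PVN and at 11.4 to 24.1 in the other nuclei. The groups did not overlap, and the smallest difference, to the DMH, was -2.32 ± 0.25 (adjusted p = 9.17e-08). Esyt3, an extended synaptotagmin that tethers the endoplasmic reticulum to the cell membrane, was at 0.687 to 1.91 RPKM against 6.19 to 30.3 (smallest difference -2.28 ± 0.24, adjusted p = 2.93e-08). Gpr83, a G protein-coupled receptor, was at 0.383 to 1.20 RPKM against 2.96 to 12.8 (smallest difference -1.68 ± 0.29, adjusted p = 0.00029).

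Gabra5, the alpha 5 subunit of the GABA-A receptor, was at 6.48, 18.4, 12, 9.97 and 10.6 RPKM in the PVN. It was highest in the VMH at 85.4 to 159, then in the ARC at 45.7 to 86.9 and the DMH at 43.0 to 49.0, and the PVN lay below all of these. Its smallest difference was -1.98 ± 0.20, to the DMH (adjusted p = 2.54e-08). It was the only one of 12 GABA and glutamate neuron genes lower in all 3 comparisons. In single comparisons 4 of the 12 were lower than in the ARC, 5 than in the VMH and 5 than in the DMH, and 1, 3 and none were higher.

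**Figure D4:**
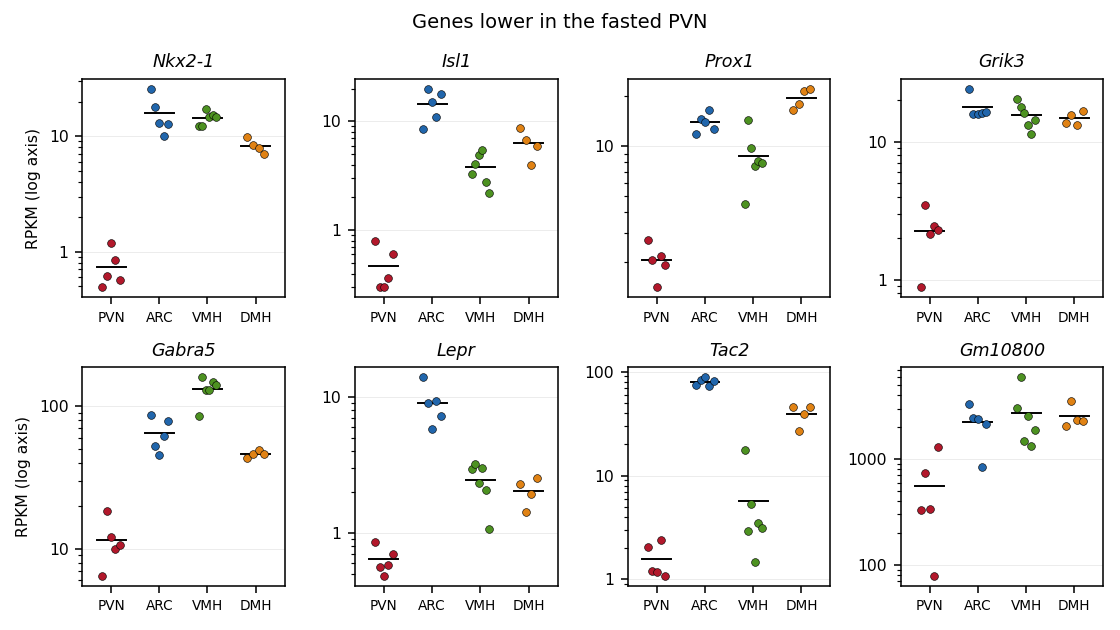
RPKM of 8 named lower genes on a log axis, 1 point per fasted library and a bar at the group mean, for PVN (n = 5), ARC (n = 5), VMH (n = 6) and DMH (n = 4). The PVN points lie below all others for Nkx2-1, Isl1, Prox1, Grik3, Gabra5 and Lepr, whereas Tac2 overlaps the VMH and Gm10800 spreads from 78.9 to 1314 within the PVN.

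Across the 217 higher genes, the difference to the nearest nucleus had a median of 0.86 on the log2 scale, and it was at least 1 for 85 genes and at least 2 for 14. The nearest nucleus was the DMH for 89, the ARC for 78 and the VMH for 50. All 5 PVN libraries lay above the 15 other fasted libraries for 128 of the 217, where 0.488% of all genes tested did so. Across the 114 lower genes the median was -0.74, with 34 of size at least 1 and 6 of at least 2, and the PVN lay below all 15 others for 61, where 0.247% of all genes did so. These counts take each predicted gene that shares sequence or overlaps as a gene of its own. Gm10800, Gm10801 and Gm26870 are among the 6. The higher and lower genes were called on these same libraries, so the counts without overlap describe them and are no independent support. Of the higher genes 201 were protein-coding, and of the lower genes 110. In 7 higher genes none of the 15 other libraries held a read, so their differences depend on the added count.

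The fed mice give the same comparison in other animals. A single spread per gene was estimated over all 42 libraries, so the fasted and fed calls are not fully separate tests. In a fit on the fasted libraries alone, 179 genes were higher and 93 lower. Of these, 165 and 85 were among the 217 and 114. In the fed PVN, 237 genes were higher and 124 lower than in all 3 other fed nuclei, 0.706% and 0.369% of the genes tested. Both states called 128 higher genes, 59.0% of the fasted list and 54.0% of the fed list, and 72 lower genes, 63.2% and 58.1%. Among the fasted lists, 205 of 217 and 113 of 114 genes had the same direction against all 3 nuclei in fed mice.

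Oxt and Avp led the higher genes by a wide margin in fed mice too, with smallest differences of 6.66 ± 0.45 and 6.53 ± 0.34, both to the ARC (adjusted p = 2.35e-13 and 3.33e-16). Crh differed from the fed DMH by 2.73 ± 0.18 (adjusted p = 2.37e-13). Otp and Trh, not called in all 3 comparisons in fasted mice, were called in fed mice, with smallest differences of 1.93 ± 0.40 for Otp, to the ARC, and 1.27 ± 0.37 for Trh, to the DMH (adjusted p = 0.00184 and 0.056). The change of the PVN difference with state did not pass the test for either gene (interaction adjusted p = 1 for both).

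**Figure D5:**
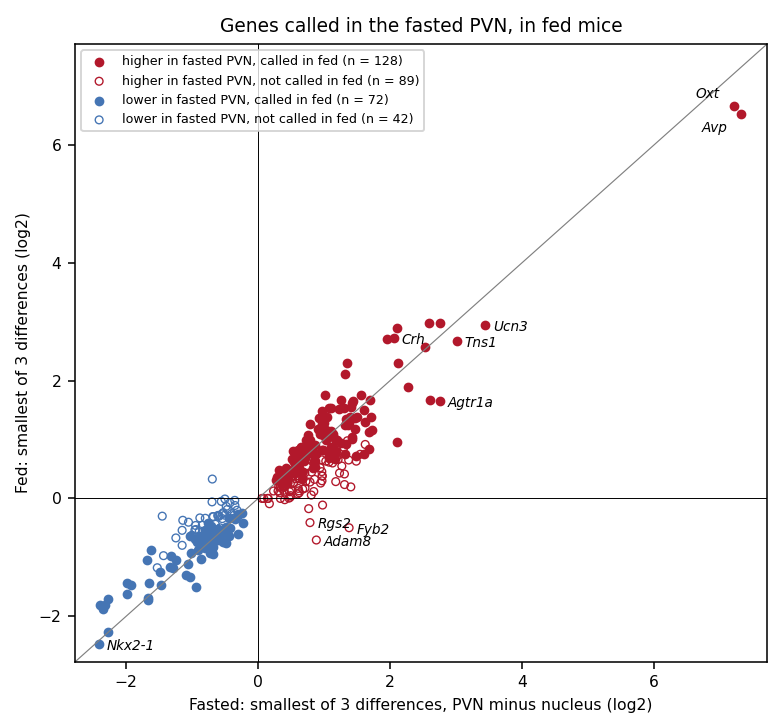
Each point is a gene higher (red, n = 217) or lower (blue, n = 114) in the fasted PVN, placed by the smallest of its 3 log2 differences in fasted mice on the x axis and in fed mice on the y axis, with filled points also called in fed mice and the line marking equal values. Oxt and Avp lie at the far right near the line, and Rgs2, Fyb2 and Adam8 lie below 0 in fed mice.

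The change of the PVN difference between fasted and fed mice was tested as an interaction, the PVN minus the mean of the 3 other nuclei, fasted minus fed. It passed for 4 of 33579 genes (0.0119%), and 1343 genes (4%) had an unadjusted p under 0.05. The 4 genes were Fyb2, Rgs2, Adam8 and Ppp1r17.

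Fyb2, an adaptor protein gene, was at 5.73, 8.47, 3.84, 5.0 and 2.22 RPKM in the fasted PVN, above all 15 other fasted libraries, and at 0.346 to 0.889 in the fed PVN. The interaction was 1.79 ± 0.26 (adjusted p = 0.00191), and its call was lost without the batch 1 libraries. Rgs2, a regulator of G protein signalling that acts on Gq, was at 167, 147, 175, 176 and 156 RPKM in the fasted PVN and at 62.1 to 104 in the fed PVN. In the other fasted nuclei it lay between 44.9 and 113, and the interaction was 0.99 ± 0.15 (adjusted p = 0.00191).

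Ppp1r17, an inhibitor of protein phosphatases, was at 33.9 to 68.5 RPKM in the fasted PVN and at 12.3 to 28.0 in the fed PVN, which did not overlap. In the DMH it was at 44.7 to 55.7 in fasted and 41.2 to 58.8 in fed mice, and the interaction was 1.55 ± 0.29 (adjusted p = 0.0477), a call lost without PVN library 3 or PVN library 4 and with no pseudocount (adjusted p = 0.108). Adam8, a metalloprotease, had its interaction of 1.62 ± 0.30 (adjusted p = 0.0471) from fasted PVN values of 6.99, 1.68, 2.25, 2.03 and 2.04 RPKM against 0.315 to 0.616 in the fed PVN. Both its interaction and its place among the higher genes were lost without PVN library 1, the library at 6.99, and without batch 1. The interaction was also lost with a pseudocount of 5 (adjusted p = 0.108). Dapl1, next in order, did not pass (0.79 ± 0.16, adjusted p = 0.16).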

How the data were processed

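The RPKM values the authors deposited cover 37907 genes in 42 libraries of laser-captured nuclei. RNA was amplified and sequenced without strand, and the submitters' processing notes name CASAVA 1.7, TopHat2 2.0.11, Cufflinks 2.2.1, edgeR and limma on GRCm38. The deposited RPKM hold no 0. Recurring lowest values showed that a count had been added to each gene (mean 5.0 reads, 1.46 to 14.5 by depth) and that 3 batches of 10, 16 and 16 libraries had been levelled. From these steps depth was estimated at 1.33 to 13.2 M reads per library (mean 4.57), with 97.6% to 98.9% of low values whole reads within 0.1 read. Whole reads could be read back for low genes only, so no count test was run.

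Log2(RPKM + 1) was tested with limma 3.58.1 (R 4.3.3) in the 33579 genes at 1 RPKM or more in at least 4 libraries, with 8 group means, an intensity trend and Benjamini-Hochberg adjustment over all genes (threshold 0.1). Single genes and depth were tested with two-sided exact permutation tests. Tested on simulated data for the fasted PVN against all 3 nuclei (33579 genes), the fit called 71% of the 100 genes shifted by a log2 value of 1 and 99% of those shifted by 2, with 0 false calls. The simulated noise was normal and independent between libraries, and only genes with a mean log2(RPKM + 1) above 2 were shifted. No other gene differed between nuclei there, so a false call in all 3 comparisons was unlikely from the outset. The 0 false calls therefore give no error rate for the real data. The study captured the 4 nuclei from the same brains, but the labels do not tie libraries to animals, so libraries were treated as independent and p-values measure the spread between libraries. The 3 comparisons share the PVN libraries.

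Named genes were the 15 higher and 15 lower of largest smallest difference, the 5 of smallest interaction p, up to 6 called per list, 12 always given (Oxt, Avp, Crh, Trh, Sst, Sim1, Otp, Pou3f2, Arnt2, Mc4r, Nr3c1 and Nos1) and the markers of each nucleus. Members and the 21 lists were chosen with earlier results of these data known. Alternatives changed the pseudocount, filter, fit, covariates, normalization and threshold, or left out each fasted library.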

Additional observations from a re-analysis of the deposited data

Results flagged for a closer look

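Of 168 groups of libraries of the named genes, 26 held a library apart from its group by Dixon's test, where chance gives about 1 in 20, or 8.4. In the PVN, library 1 was apart for Fezf2 at 39.7 RPKM (others 15.2 to 18.7), Adam8 at 6.99 (others 1.68 to 2.25) and Nr3c1 at 25.3 (others 13.5 to 16.3), and library 2 for Mc4r at 8.01 (others 2.32 to 3.52).

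In the DMH, library 2 was apart for Ucn3 at 11.6 RPKM, Pgf at 10.3, Gpr83 at 7.48, Gm10801 at 981 and Gm10717 at 52.2. Library 1 was apart for Tns1 at 6.95 and Sim1 at 1.12, and library 4 for Mc4r at 3.89.

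In the ARC, library 1 was apart for Crh at 2.17 RPKM, Grik3 at 24.1 and Ucn3 at 0.600, and library 3 for Pou3f2 at 2.32. The same Ucn3 value, 0.600, was also the lowest in the VMH, as recurring values without reads are. It may therefore not be a difference in level, although the count of 26 includes it. In the VMH, library 1 was apart for Rufy4 at 2.63 and Esyt3 at 30.3, and library 2 for Prdm8 at 1.054, Gm10800 at 5949 and Gm10717 at 84.0. Library 3 was apart for Nos1 at 14.2, library 4 for Agtr1a at 0.957 and Dapl1 at 1.48, and library 6 for Ucn3 at 8.03 and Uncx at 1.25.

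The PVN difference changed between fasted and fed mice by 1.79 on the log2 scale for Fyb2, 0.99 for Rgs2, 1.62 for Adam8 and 1.55 for Ppp1r17 (limma interaction, adjusted p = 0.00191, 0.00191, 0.0471 and 0.0477).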

How the results depend on the processing

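With a mean of at least 5 RPKM required, 138 genes were higher and 2 interactions passed. With array weights, 1565 genes differed from the DMH and 12 interactions passed. With a log2 difference of at least 1 also required, 506, 910 and 343 genes differed from the ARC, VMH and DMH, 85 were higher and 34 lower than in all 3, and 49 higher and 21 lower genes were shared with fed mice. The first and last of these test fewer genes or ask for a larger difference, and for the array weights the cause was not tested. Leaving out 1 fasted library at a time gave 1188 to 1487 genes against the ARC, 2506 to 3173 against the VMH, 857 to 1093 against the DMH, 179 to 220 higher, 88 to 115 lower, 115 to 132 and 58 to 76 shared with fed mice, and 3 to 12 interactions, of which 12 came without PVN library 5.

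Same-numbered libraries did not visibly deviate together (27 pairs, correlation -0.131 to 0.065, 12 of them in different batches). The correlation was taken over all genes tested, which include genes without reads, so a weak effect of a shared animal could be missed. Whether the numbers pair any of the libraries was therefore not decided. With the replicate block, 180 genes were higher and 94 lower, of which 178 and 92 were among the 217 and 114, and 3 interactions passed. Among the named genes, Dnajb9 (adjusted p = 0.17) and the Adam8 interaction (0.202) did not pass with the block. Without batch 1, chosen after seeing the data, 222 and 135 were called, of which 175 and 90 were shared. Without genes constant in all libraries, also chosen after seeing the data, 228 and 123 were called.

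For 59 named single-gene results there were 1927 alternative values, of which 1854 kept direction and call, 67 lost the call, 6 gained it (the Dapl1 interaction) and 0 reversed. Of 58 called results, 16 lost the call at least once. Sim1 lost it only with the mean of at least 5 RPKM, and the cause was not tested. The added count and depth limit low genes, whose differences are understated.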

Other observations

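Further groups among the 217 and 114 genes were picked after their values were seen and are given as values. Ebf3, a transcription factor of the EBF family, was at 33.4 to 38.7 RPKM in the PVN, 10.7 to 15 in the DMH and at most 3.18 in the ARC and VMH (1.43 ± 0.21 to the DMH, limma adjusted p = 1.7e-05). Bhlhe22, a bHLH factor, was at 1.63 to 3.86 RPKM in the PVN and at most 0.817 elsewhere. Foxb2, a forkhead factor, was at 2.73 to 8.73 RPKM in the PVN, while 13 of the 15 other libraries held no read.

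Potassium channel genes stood on both sides. Kcnj3, an inward rectifier subunit, was lower, at 4.79 to 9.20 RPKM in the PVN against 11.7 to 27.3, with 31.1% of its exon length overlapping another gene. Kcnh1, a voltage-gated channel, was at 26.3 to 34.4 RPKM in the PVN and at most 12.9 elsewhere (1.62 ± 0.21 to the VMH, adjusted p = 6.08e-07). Kcnd3, an A-type channel, was at 27.1 to 30.7 RPKM against 10.5 to 21.3. Receptor genes outside the lists included Cckar, the cholecystokinin A receptor, at 17.1 to 29.3 RPKM in the PVN and at most 9.59 elsewhere, and Rxfp3, the relaxin-3 receptor, at 5.82 to 10.9 and at most 3.47.

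Angpt1, angiopoietin 1, was at 7.42 to 11.2 RPKM in the PVN and at most 4.12 elsewhere (1.41 ± 0.21 to the ARC, adjusted p = 1.33e-05). Vegfa was at 11.3 to 18.5 RPKM, and VMH library 1, at 13.3, overlapped it (0.83 ± 0.20 to the VMH, adjusted p = 0.00449). The summed endothelial and pericyte level was also highest in the PVN, and its part in these values was not tested.

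Lower genes of synaptic and calcium signalling included Grik2, a kainate receptor subunit, at 7.72 to 11.4 RPKM in the PVN against 16.6 to 23.2, and Itpr1, the type 1 IP3 receptor, at 8.61 to 10.3 against 14.0 to 49.9.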
